A study of Homo sapiens with 34 samples.

Results

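The comparison covers the second day of the standard lateral mesoderm protocol in ESI017 cells, a human embryonic stem cell line labelled as wild type. Cells held for 24 h in mid primitive streak (MPS) medium gave 2 libraries (MPS-24h), and cells moved from it to lateral mesoderm (LM) medium until 48 h gave 2 libraries (MPS-LM). These 4 bulk RNA-seq libraries were taken by their labels and column names, not by any measured value, out of 34 libraries from 17 conditions. On day 1 the cells received 40 ng/ml BMP4, 6 µM CHIR99021 (a GSK3 inhibitor that activates WNT signaling), 20 ng/ml bFGF and 30 ng/ml activin A. On day 2 they received 30 ng/ml BMP4 together with 4 µM IWP2, which blocks WNT secretion, and 1 µM A-8301, which blocks the activin, nodal and TGF-beta receptors. The day 2 medium and the passing of time changed together and cannot be told apart in this comparison. All groups share the genotype and the cell line, so nothing here speaks to other lines. Further libraries, 2 a condition, served as reference. Undifferentiated control cells stayed in mTeSR PLUS for 48 h. MPS cells were also moved on day 2 to paraxial mesoderm (PM) medium, with 250 nM LDN193189 (a BMP receptor inhibitor), 20 ng/ml bFGF and 1 µM A-8301, or to the second endoderm medium, DE(b), with 250 nM LDN193189 and 100 ng/ml activin A. The labels list no WNT agonist in PM medium while a supplementary text of the study does. LM medium was also given after 3 other day 1 treatments, namely posterior streak (PPS, the MPS mixture without activin A), anterior streak (APS, 4 µM CHIR99021 with 20 ng/ml bFGF and 30 ng/ml activin A, without BMP4) and DE(a) (2 µM CHIR99021 with 100 ng/ml activin A). The libraries of a condition are called biological replicates, but no source says that they came from separate cultures, so the p-values measure the spread between these libraries.

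Mesoderm arises from the primitive streak, where WNT, nodal, BMP and FGF signals and the T-box factors TBXT and EOMES act in cells that leave the epiblast. Cells that leave the middle and posterior streak form lateral plate and extraembryonic mesoderm, and the lateral plate later gives heart, gut wall, limb and vascular tissue. BMP favors lateral over paraxial fates, whereas WNT and FGF sustain the presomitic mesoderm from which somites form.

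4 promoter stretches of 100 bases that hold a motif are shown first: SP5 of the WNT response genes, GATA2 of the BMP response genes, and HAND2 and TCF21 of the lateral and cardiac factors. All 4 genes passed the test described below. Other promoters with a motif are not printed. Among them are those of GATA3 (SMAD) and ISL1 (GATA), genes that did not pass that test. They come from the 300-base promoters of RefSeq (GRCh38.p14) and run 5′ to 3′ on the strand of the gene. Capitals mark a TCF/LEF motif (CTTTGAT) in SP5, a BMP-type SMAD motif (TGGCGCC) in GATA2, where a forward and a reverse copy lie side by side, and a GATA motif (AGATAA, in HAND2 on the opposite strand) in HAND2 and TCF21.
SP5, chr2:170715208-170715307, plus strand: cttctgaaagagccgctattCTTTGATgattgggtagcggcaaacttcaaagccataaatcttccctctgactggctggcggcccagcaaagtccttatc
GATA2, chr3:128488578-128488677, minus strand: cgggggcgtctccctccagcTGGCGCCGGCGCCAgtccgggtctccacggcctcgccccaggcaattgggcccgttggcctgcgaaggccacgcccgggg
HAND2, chr4:173530322-173530421, minus strand: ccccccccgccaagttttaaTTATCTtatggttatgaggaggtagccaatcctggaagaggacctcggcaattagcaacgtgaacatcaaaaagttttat
TCF21, chr6:133889013-133889112, plus strand: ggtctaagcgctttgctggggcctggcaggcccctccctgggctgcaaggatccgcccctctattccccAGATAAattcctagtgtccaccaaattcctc
The stretches lie upstream of the start that RefSeq gives each gene, and that of GATA2 falls inside the longer GENCODE span of its gene. Both strands were searched. The TCF/LEF motif was in 1 of 11 WNT response genes with a promoter in the table (9.09%) and in 2.62% of all 35116 promoters. The SMAD motif was in 2 of 16 BMP response genes (12.5%) against 5.81% of all promoters, and the GATA motif was in 6 of 17 lateral and cardiac factors (35.3%) against 10.3%. A match describes the letters of the window and is not evidence of binding.

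Between 24 h and 48 h, 5765 of 17246 genes tested passed edgeR's quasi-likelihood test at an adjusted p under 0.05, which is 33.4% of them. Of these, 2766 were higher in MPS-LM (16.0%) and 2999 were lower (17.4%). A gene is called higher, lower, risen or fallen below only where it passed this test, and fold changes are log2 values of MPS-LM over MPS-24h ± the standard error of the fit, with 2 libraries in each condition. Levels are counts per 1000000 counts of the library (CPM), given for replicates 1 and 2 in that order. Of the called genes, 1537 were higher and 1941 lower by at least 2-fold, and 248 and 439 by at least 16-fold. The median log2 change of all genes tested was 0.00, and the called genes that were higher gained 12.9% of the counts while those that were lower lost 12.5%. In 2755 of the 2766 higher genes and 2996 of the 2999 lower genes the libraries of the conditions did not overlap. This nearly always goes with a call and adds no support to it. The share among all genes tested is not given here. The totals were 23045722 and 20380733 counts at 24 h and 17192526 and 21076327 in MPS-LM, within the range of 15522780 to 23439799 over the 34 libraries. The replicates correlated across genes at r = 0.9909 (24 h) and 0.9895 (MPS-LM), where genes are not independent replicates. Mitochondrially encoded genes took 4.58% and 6.19% of counts at 24 h and 5.48% and 5.39% in MPS-LM.

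**Figure D1:**
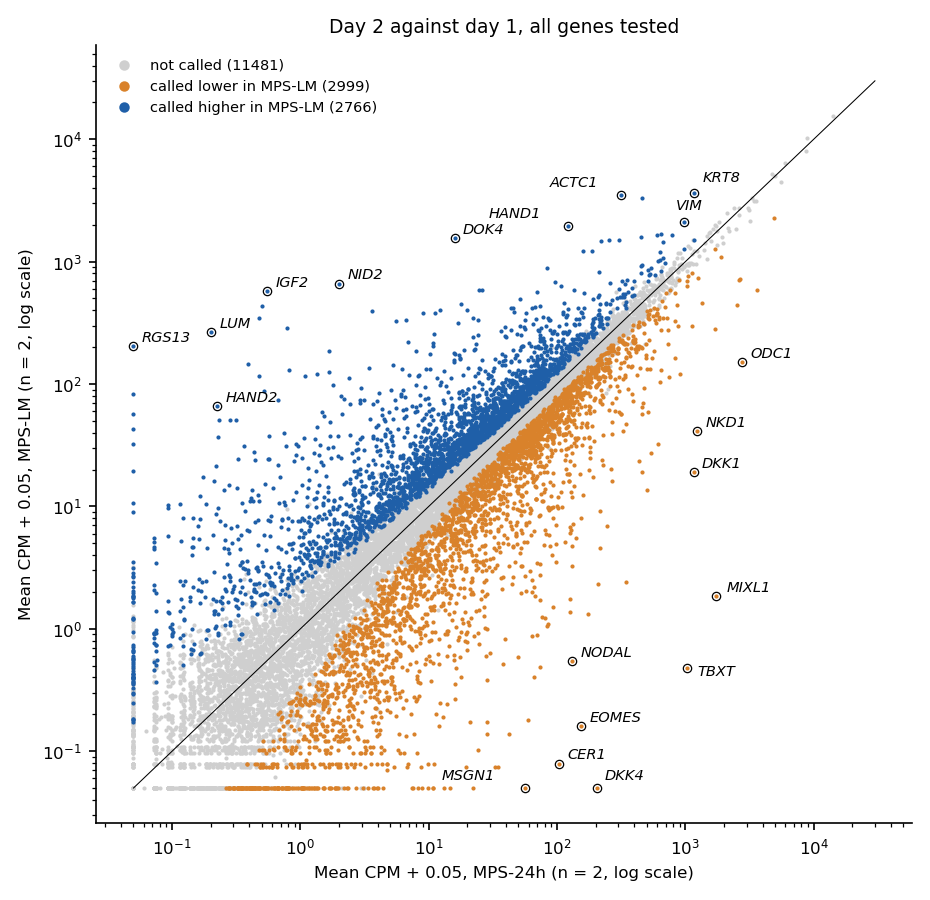
Mean CPM of each of the 17246 genes tested at 24 h (x axis) and in MPS-LM (y axis), both on log scales with 0.05 CPM added, with 2766 genes called higher, 2999 called lower and 11481 not called in separate colors. TBXT, MIXL1 and DKK1 lie far below the diagonal and IGF2, LUM, NID2 and HAND2 far above it.

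The label was checked against marker genes. The 6 lateral mesoderm markers summed to 394 and 303 CPM at 24 h and to 2085 and 2558 CPM in MPS-LM, and none of them was under 1 CPM in both MPS-LM libraries. The 4 primitive streak markers summed to 3185 and 3335 CPM at 24 h and to 23.8 and 75.1 CPM in MPS-LM. The 4 paraxial mesoderm markers were at 3.74 and 2.23 CPM in MPS-LM, and the 4 definitive endoderm markers at 0.237 and 3.90 CPM. The sum of the labelled markers was therefore higher in MPS-LM, and most of it was HAND1 (1789.5 and 2127 CPM). The lateral markers FOXF1, GATA4 and ISL1 were not called. The day 1 streak markers were low in both MPS-LM libraries. The markers of other cell types in MPS-LM were not all low: the 3 pluripotent cell markers kept 135 and 127 CPM, from 623 and 714 CPM at 24 h, with 2 of them under 1 CPM in both libraries. The 6 amnion markers were at 81.1 and 128 CPM, with 2 of 6 under 1 CPM, and the 5 blood and endothelial markers were at 598 and 1067 CPM, with 3 of 5 under 1 CPM. The neural markers were under 1 CPM in both libraries (3 of 3), as were 2 of 3 germ cell markers. In bulk libraries, fewer cells of a type and less RNA in each such cell cannot be told apart.

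Transcription factors of the lateral plate and the early heart rose more often than they fell. Of 27 such genes tested, 15 rose, 2 fell and 10 were not called, with a median log2 change of 2.24 (1.81 with genes at the counting floor set to their bound) against 0.00 over all genes (16.0% of all genes rose). HAND1, a bHLH factor of lateral, extraembryonic and cardiac mesoderm (chr5:154474972-154478227, GRCh38, minus strand), stood at 164 and 79.6 CPM at 24 h and at 1789.5 and 2127 CPM in MPS-LM, a change of 4.01 ± 0.52 (edgeR adjusted p = 1.9e-06). Its paralog HAND2 was at 0.347 and 0 CPM at 24 h and at 56.8 and 75.8 CPM in MPS-LM (8.47 ± 0.77). HAND1 was thus already present on day 1 and rose further, while HAND2 first reached a clear level on day 2. PRRX1, a homeobox factor of limb and body wall mesenchyme, went from 2.69 and 2.65 CPM to 21.4 and 36.2 CPM (3.45 ± 0.78). FOXF2, a forkhead factor of the gut mesenchyme, went from 1.08 and 1.08 CPM to 9.46 and 10.4 CPM (3.21 ± 0.51), and the zinc finger factor BNC2 from 2.60 and 1.43 CPM to 27.1 and 22.1 CPM (3.60 ± 0.42). FOXF1, the paralog of FOXF2, was not called, at 89.5 and 82.6 CPM at 24 h and 109.7 and 108 CPM in MPS-LM. The lateral plate core of the list thus split into 6 genes that rose and 4 that were not called, and 1 of the latter, TBX4 (hindlimb), differed widely between the MPS-LM libraries (1.05 and 7.47 CPM).

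Among 17 cardiac and splanchnic factors, 9 rose, 2 fell and 6 were not called. The zinc finger factor GATA5 rose from 1.17 and 1.77 CPM to 56.3 and 53.8 CPM (5.24 ± 0.50, edgeR adjusted p = 2.7e-08). TBX20, a T-box factor of the heart tube, rose from 4.90 and 4.18 CPM to 37.3 and 61.6 CPM (3.47 ± 0.52), and TBX2, a T-box repressor, from 0.434 and 0.0981 CPM to 37.7 and 63 CPM (7.51 ± 0.52). These 3 genes had no overlap between the conditions, as was so for nearly all called genes. TBX2 was under 1 CPM in both libraries at 24 h. NKX2-5, the cardiac homeobox factor, rose from 4.0 and 2.66 CPM to 10.8 and 33 CPM (2.75 ± 0.60), with the MPS-LM libraries well apart. Lower levels were reached by TBX18 (7.84 and 2.61 CPM), TCF21 (6.02 and 3.09 CPM) and MEF2C (3.14 and 3.42 CPM), each under 1 CPM at 24 h and each called higher. The factors that fell were GATA6, from 315 and 248 CPM to 108 and 112 CPM (-1.34 ± 0.29), and SOX4, from 267 and 249.9 CPM to 122 and 104 CPM (-1.18 ± 0.12). ISL1 was not called, at 17 and 16.9 CPM at 24 h and 10.8 and 27.5 CPM in MPS-LM, and neither were GATA4 (118 and 119.9 CPM, then 80.7 and 158 CPM) and TBX3. TBX5, the limb and heart factor, was at 0.116 and 0.142 CPM in MPS-LM, 3 counts or fewer in a library. GATA factors therefore took different courses, with GATA5 and GATA2 up, GATA6 down, and GATA3 and GATA4 not called. Leaving out 1 library ended the call of NKX2-5 (adjusted p = 0.0597 without MPS-LM replicate 2) and MEF2C (adjusted p = 0.0839 without MPS-24h replicate 2).

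**Figure D2:**
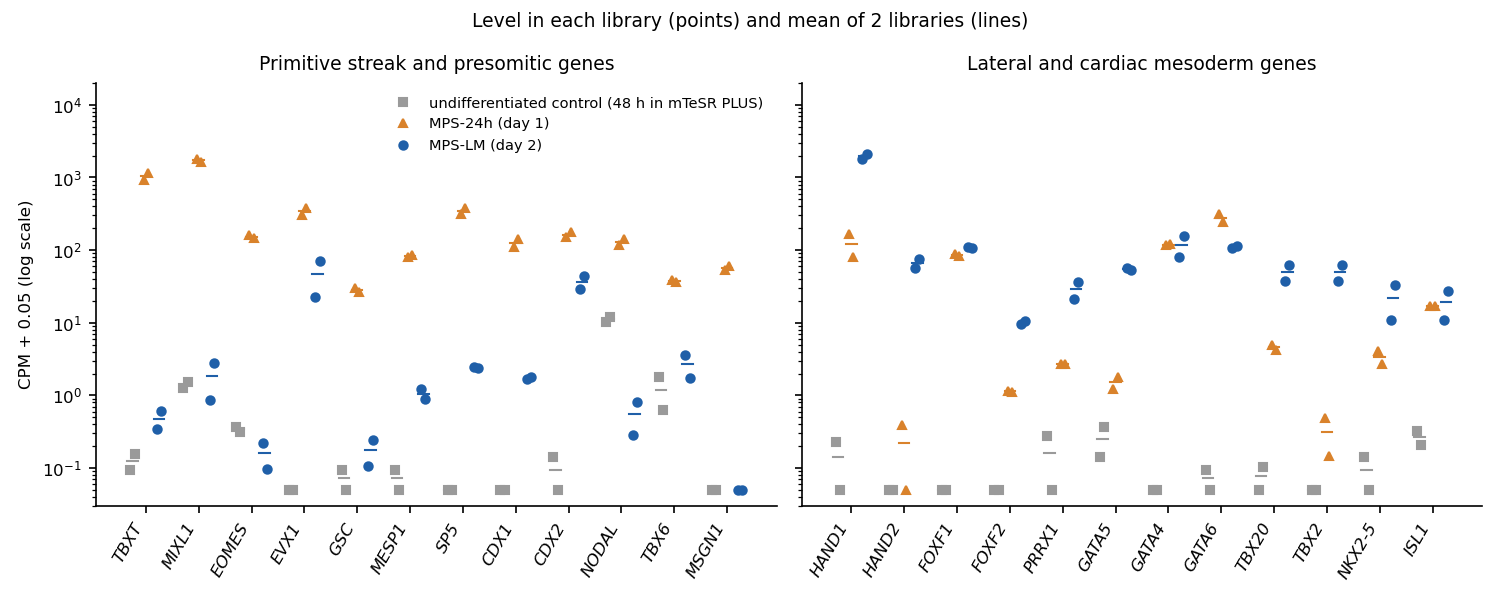
CPM of 12 streak and presomitic genes and 12 lateral genes on a log axis, with 0.05 CPM added so that 0 can be drawn. Points are libraries of the undifferentiated control, MPS-24h and MPS-LM (2 each) and bars are means. TBXT falls from 920.5 and 1152 CPM to under 1 CPM, while HAND1 ends at 1789.5 and 2127 CPM.

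The primitive streak program was lost within the same day. Of 30 streak and nascent mesoderm genes, 26 fell, 2 rose and 2 were not called, with a median log2 change of -4.46 (-4.0 with genes at the counting floor set to their bound), while 17.4% of all genes fell. All 14 transcription factors of the list fell. TBXT, the T-box factor that defines the streak (chr6:166157656-166168700, GRCh38, minus strand), dropped from 920.5 and 1152 CPM to 0.291 and 0.569 CPM (-11.16 ± 0.64, edgeR adjusted p = 2.2e-11). MIXL1, a homeobox factor of the streak (chr1:226223618-226227060, GRCh38, plus strand), dropped from 1796 and 1658 CPM to 0.814 and 2.76 CPM (-9.85 ± 0.59, edgeR adjusted p = 3.4e-11). EOMES was at 163 and 145 CPM at 24 h and at 0.174 and 0.0474 CPM in MPS-LM, the latter amounting to 3 counts or fewer in a library. None of these 3 factors was above 3 CPM in an MPS-LM library. MESP1, a bHLH factor of nascent mesoderm, fell from 80.2 and 85.5 CPM to 1.16 and 0.854 CPM (-6.35 ± 0.76), and GSC, an organizer homeobox factor, from 30.1 and 26.4 CPM to 0.0582 and 0.191 CPM (-7.68 ± 0.48). The loss was less deep for EVX1, a posterior streak homeobox factor, which kept 22.5 and 71.7 CPM from 306 and 380.1 CPM (-2.82 ± 0.58), and for CDX2, which kept 29 and 43.5 CPM from 151 and 176 CPM (-2.15 ± 0.40). Its paralog CDX1 fell from 111 and 141 CPM to 1.63 and 1.76 CPM (-6.20 ± 0.39). The streak genes that rose were APLNR, the apelin receptor, from 783 and 424 CPM to 1593 and 1718 CPM (1.47 ± 0.37), and CYP26A1, which breaks down retinoic acid, from 5.28 and 4.32 CPM to 19.5 and 26.5 CPM (2.27 ± 0.55). FLRT3, a membrane protein of the streak, was not called (122 and 126 CPM, then 127 and 148 CPM). The call was lost without 1 library for APLNR (adjusted p = 0.0783 without MPS-24h replicate 2).

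Paraxial genes that day 1 cells had begun to express also fell. Of 15 presomitic and segmentation genes tested, 9 fell, 1 rose and 5 were not called, with a median of -3.07. MSGN1, a master regulator of presomitic mesoderm, was at 52.5 and 60.4 CPM at 24 h and had no counts in either MPS-LM library, which makes it at least 356-fold lower when 3 counts per library are taken as the floor. TBX6, the T-box factor acting beside it, fell from 38.8 and 36.3 CPM to 3.57 and 1.66 CPM (-3.87 ± 0.28). DLL1, a Notch ligand of the presomitic mesoderm, fell from 59.9 and 68.3 CPM to 1.16 and 0.475 CPM (-6.32 ± 0.50). In MPS-PM libraries, which shared the same day 1, MSGN1 stood at 68.8 and 63.5 CPM, TBX6 at 161 and 153 CPM and DLL1 at 239.8 and 136 CPM. FOXC1 fell from 40.2 and 16.3 CPM to 0.291 and 0.380 CPM (-6.35 ± 0.48) and PAX3 from 10.3 and 19.5 CPM to 1.70 and 2.0 CPM (-2.99 ± 0.57). The gene that rose, MEOX2, reached only 0.465 and 0.237 CPM, and its call was lost whenever a library was left out. Among Notch pathway genes, which include the segmentation clock, 7 of 18 fell, 2 rose and 9 were not called. HEY1 rose from 2.56 and 1.86 CPM to 9.84 and 21.7 CPM and NOTCH2 from 138 and 139 CPM to 191 and 207 CPM, while JAG1 fell from 53.8 and 54.9 CPM to 19.6 and 22.4 CPM. The segmentation clock gene HES7 was at 2.97 and 2.40 CPM and then 0.0582 and 0.522 CPM. A single left-out library removed the call of HEY1 (adjusted p = 0.0738 without MPS-24h replicate 2 and 0.09 without MPS-LM replicate 2) and NOTCH2 (adjusted p = 0.104 without MPS-24h replicate 1, 0.115 without MPS-24h replicate 2 and 0.173 without MPS-LM replicate 2).

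The BMP response genes were the only one of the 4 response lists in which more members rose than fell. BMP4 was in the medium on both days, and a link between its presence and these changes was not tested. Of 21 genes, 9 rose, 2 fell and 10 were not called, with a median of 0.56, while 16.0% of all genes rose and 17.4% fell. Among direct targets, ID2, an inhibitor of bHLH factors, rose from 102 and 105 CPM to 272 and 326 CPM (1.55 ± 0.26), whereas ID1 (129 and 134 CPM, then 85.9 and 108 CPM), ID3 and ID4 were not called. GATA2, a zinc finger factor of extraembryonic and hematopoietic tissue, rose from 17.1 and 22.8 CPM to 459 and 344 CPM (4.34 ± 0.35, edgeR adjusted p = 3e-09). MSX1, a homeobox target of BMP, fell from 430.5 and 506 CPM to 53.9 and 86.2 CPM (-2.71 ± 0.37), while its paralog MSX2 was not called (123 and 107 CPM, then 121 and 169 CPM). The direct targets thus did not move together, and 7 of 11 were not called. Of 10 feedback genes, 6 rose and 1 fell, and the difference between these groups was not tested. SMAD9, a receptor-regulated SMAD, rose from 5.08 and 5.41 CPM to 111 and 173 CPM (4.78 ± 0.27, edgeR adjusted p = 2.2e-11), and the inhibitory SMAD6 rose from 60.2 and 73.6 CPM to 394 and 454 CPM (2.68 ± 0.22). BAMBI, a decoy receptor, rose from 353 and 289.9 CPM to 622 and 769 CPM (1.13 ± 0.26). Extracellular antagonists went both ways. BMPER rose from 22.5 and 14.7 CPM to 147 and 230.0 CPM (3.36 ± 0.49), but GREM1 fell from 121 and 55.2 CPM to 3.49 and 5.94 CPM (-4.20 ± 0.57). NOG rose from 18.1 and 27.5 CPM to 33 and 52.6 CPM (0.94 ± 0.32). The ligands went both ways: BMP2 fell from 345 and 308 CPM to 31.3 and 50.5 CPM (-2.97 ± 0.29) while BMP4 rose from 205 and 92.5 CPM to 305 and 311 CPM (1.06 ± 0.34). BMP4 here means the cells' own transcript, not the protein added to the medium. Of 8 BMP ligands tested, 4 rose, 2 fell and 2 were not called, and those called higher were 1 without MPS-24h replicate 2 or MPS-LM replicate 2 and 2 without MPS-LM replicate 1. Leaving out 1 library ended the call of NOG (adjusted p = 0.227 without MPS-24h replicate 1 and 0.343 without MPS-LM replicate 2) and BMP4 (adjusted p = 0.267 without MPS-24h replicate 2, 0.0502 without MPS-LM replicate 1 and 0.073 without MPS-LM replicate 2).

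WNT response genes fell almost as a whole. Of 22 genes, 19 fell, 2 rose and 1 was not called, with a median of -3.16. SP5, a zinc finger target of WNT whose promoter is printed above, fell from 310.0 and 376 CPM to 2.38 and 2.34 CPM (-7.17 ± 0.38, edgeR adjusted p = 2.2e-11). AXIN2, the feedback scaffold of the pathway, fell from 402 and 519 CPM to 20.6 and 17.3 CPM (-4.59 ± 0.36). NKD1, an intracellular antagonist, fell from 1169 and 1310.3 CPM to 43.2 and 39.1 CPM (-4.90 ± 0.50). None of these 3 feedback genes had overlapping libraries, as was so for nearly all called genes. Secreted inhibitors fell alongside them: DKK1 went from 1238 and 1087 CPM to 16.1 and 21.8 CPM (-5.92 ± 0.52), and DKK4 from 214 and 193 CPM to no counts in either MPS-LM library, at least 1284-fold lower by the floor of 3 counts. The receptor LGR5 fell from 185 and 163 CPM to 2.27 and 0.285 CPM (-7.16 ± 0.51). Exceptions were LEF1, the nuclear partner of beta-catenin, which rose from 157 and 162 CPM to 382 and 327 CPM (1.16 ± 0.28), and the inhibitor SFRP1, which rose from 11.5 and 9.13 CPM to 19.3 and 18.6 CPM (0.89 ± 0.22). TCF7, which acts like LEF1 at DNA, fell from 173 and 189.9 CPM to 23.5 and 26.1 CPM (-2.85 ± 0.27). WNT ligands fell too, in 7 of 14 cases, including WNT5A (908 and 749 CPM, then 158 and 169 CPM), WNT5B (429.8 and 493 CPM, then 37.2 and 75.8 CPM) and WNT3 (121 and 111 CPM, then 34.4 and 35.6 CPM). WNT11 was the ligand that rose, from 0.911 and 0.0982 CPM to 28.1 and 20.8 CPM (5.54 ± 0.69). RSPO2, a secreted enhancer of WNT signaling outside the list, was at 0.564 and 0.294 CPM at 24 h and 119 and 114 CPM in MPS-LM (8.05 ± 0.57). The call was lost without 1 library for SFRP1 (adjusted p = 0.052 without MPS-24h replicate 2).

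Nodal and activin response genes fell in 15 of 19 cases, with 2 higher and 2 not called and a median of -4.30 (-3.59 with genes at the counting floor set to their bound). NODAL itself dropped from 117 and 144 CPM to 0.233 and 0.759 CPM (-7.94 ± 0.51, edgeR adjusted p = 8.3e-11). PMEPA1, a feedback inhibitor of the TGF-beta branch, dropped from 94.3 and 101 CPM to 4.77 and 5.03 CPM (-4.30 ± 0.23). CER1, a secreted nodal and BMP antagonist, was at 156 and 49.4 CPM at 24 h and had 1 count in 1 MPS-LM library and none in the other. Inhibitors of the pathway were among the genes that fell, with the activin-binding FST going from 464 and 549 CPM to 14.3 and 12.6 CPM (-5.23 ± 0.73), and the SMAD corepressor SKIL from 265 and 267 CPM to 42.9 and 54.9 CPM (-2.43 ± 0.20). TDGF1, the nodal coreceptor, kept 61 and 168 CPM from 354 and 319 CPM (-1.52 ± 0.38). The genes that rose were LTBP1, a latent TGF-beta binding protein, from 44 and 49.5 CPM to 202 and 127 CPM (1.82 ± 0.17), and INHBA, which encodes an activin subunit, from 0.174 and 0 CPM to 1.98 and 1.28 CPM, a few counts on day 1. SMAD7, which both TGF-beta and BMP induce, was not called (95 and 102 CPM, then 89.7 and 94.2 CPM). A single left-out library removed the call of TDGF1 (adjusted p = 0.0842 without MPS-LM replicate 1).

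FGF-ERK response genes fell in 13 of 21 cases, 3 rose and 5 were not called, with a median of -1.16. IL17RD, a membrane antagonist of FGF receptors, fell from 558 and 520.3 CPM to 29.8 and 25.1 CPM (-4.29 ± 0.25, edgeR adjusted p = 2.5e-11). SPRY4, a feedback inhibitor, fell from 514 and 445 CPM to 58.6 and 125 CPM (-2.35 ± 0.37), and ETV4, an ETS factor downstream of FGF, from 211 and 247 CPM to 9.46 and 33.9 CPM (-3.36 ± 0.43). DUSP6, the ERK phosphatase, went the other way, from 97.9 and 60.5 CPM to 122 and 193 CPM (1.01 ± 0.38), as did SPRED1 and DUSP14. ETV5 was not called (23.4 and 16.6 CPM, then 16.4 and 42.1 CPM). The early response genes EGR1 and FOS, which respond to many stimuli, fell from widely spread levels at 24 h, EGR1 from 67.3 and 347 CPM to 2.57 and 1.99 CPM and FOS from 11.9 and 45.3 CPM to 1.63 and 2.14 CPM. The FGF ligands changed in both directions. FGF4 fell from 96.2 and 167 CPM to 2.80 and 3.66 CPM (-5.32 ± 0.38) and FGF17 from 36 and 42.1 CPM to 0.931 and 0.618 CPM (-5.66 ± 0.86). FGF19 rose from 46.9 and 65.9 CPM to 332 and 339 CPM (2.59 ± 0.51), FGF10, a mesenchymal ligand of limb and lung, from 3.95 and 8.06 CPM to 94.9 and 63.4 CPM (3.73 ± 0.41), and FGF3 from 0.307 and 0.736 CPM to 36 and 12.5 CPM (5.54 ± 0.67). Over 14 ligands tested, 3 rose, 7 fell and 4 were not called. Among receptors, FGFR2 rose from 26.5 and 21.8 CPM to 439 and 230.5 CPM (3.79 ± 0.36), while FGFR1 was not called (204 and 249 CPM, then 263 and 310.4 CPM). Leaving out 1 library ended the call of DUSP6 (adjusted p = 0.305 without MPS-24h replicate 2 and 0.361 without MPS-LM replicate 2).

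Libraries of MPS cells moved to other day 2 media give reference levels for the same 4 lists, but all of these comparisons use the MPS-LM libraries again. Against MPS-PM, 3381 genes (19.6%) were called, 1772 higher and 1609 lower in MPS-LM, and against MPS-DE(b) 3703 (21.5%), 1708 higher and 1995 lower. BMP response genes were higher in MPS-LM than in MPS-PM in 18 of 21 cases (median 3.56) and than in MPS-DE(b) in 16 of 21 (median 2.93), both media with LDN193189. ID2 was at 25.8 and 17.7 CPM in MPS-PM and 14.8 and 7.51 CPM in MPS-DE(b), below both its 24 h and its MPS-LM values, and SMAD9 was at 4.74 and 3.74 CPM in MPS-PM and 4.22 and 3.48 CPM in MPS-DE(b). ID1, not called between days, was at 38.1 and 15.1 CPM in MPS-PM and 19.4 and 11.2 CPM in MPS-DE(b), under the 85.9 and 108 CPM of MPS-LM. WNT response genes were lower in MPS-LM than in MPS-PM in 17 of 22 cases (median -3.22) and lower than in MPS-DE(b) in 9 of 22. SP5 kept 186 and 320.1 CPM in MPS-PM and 17.5 and 17.4 CPM in MPS-DE(b). Of 19 nodal and activin response genes, 13 were lower and 3 higher in MPS-LM than in MPS-DE(b) (median -3.68), which held activin A. Against MPS-PM, which held A-8301 as LM medium did, 3 were lower, 6 higher and 10 not called (median 0.64). A link between these levels and what the media held was not tested. NODAL was at 0.568 and 0.167 CPM in MPS-PM and at 126 and 114 CPM in MPS-DE(b). FGF-ERK response genes were lower in MPS-LM than in MPS-PM in 7 of 21 cases and higher in 3, and lower than in MPS-DE(b) in 8 and higher in 2. IL17RD was at 406 and 651 CPM in MPS-PM and 276 and 285 CPM in MPS-DE(b). Of the 27 lateral and cardiac factors, 20 were higher in MPS-LM than in MPS-PM and 17 were higher than in MPS-DE(b), with HAND1 at 20.6 and 9.57 CPM in MPS-PM and 27.8 and 19.9 CPM in MPS-DE(b).

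**Figure D3:**
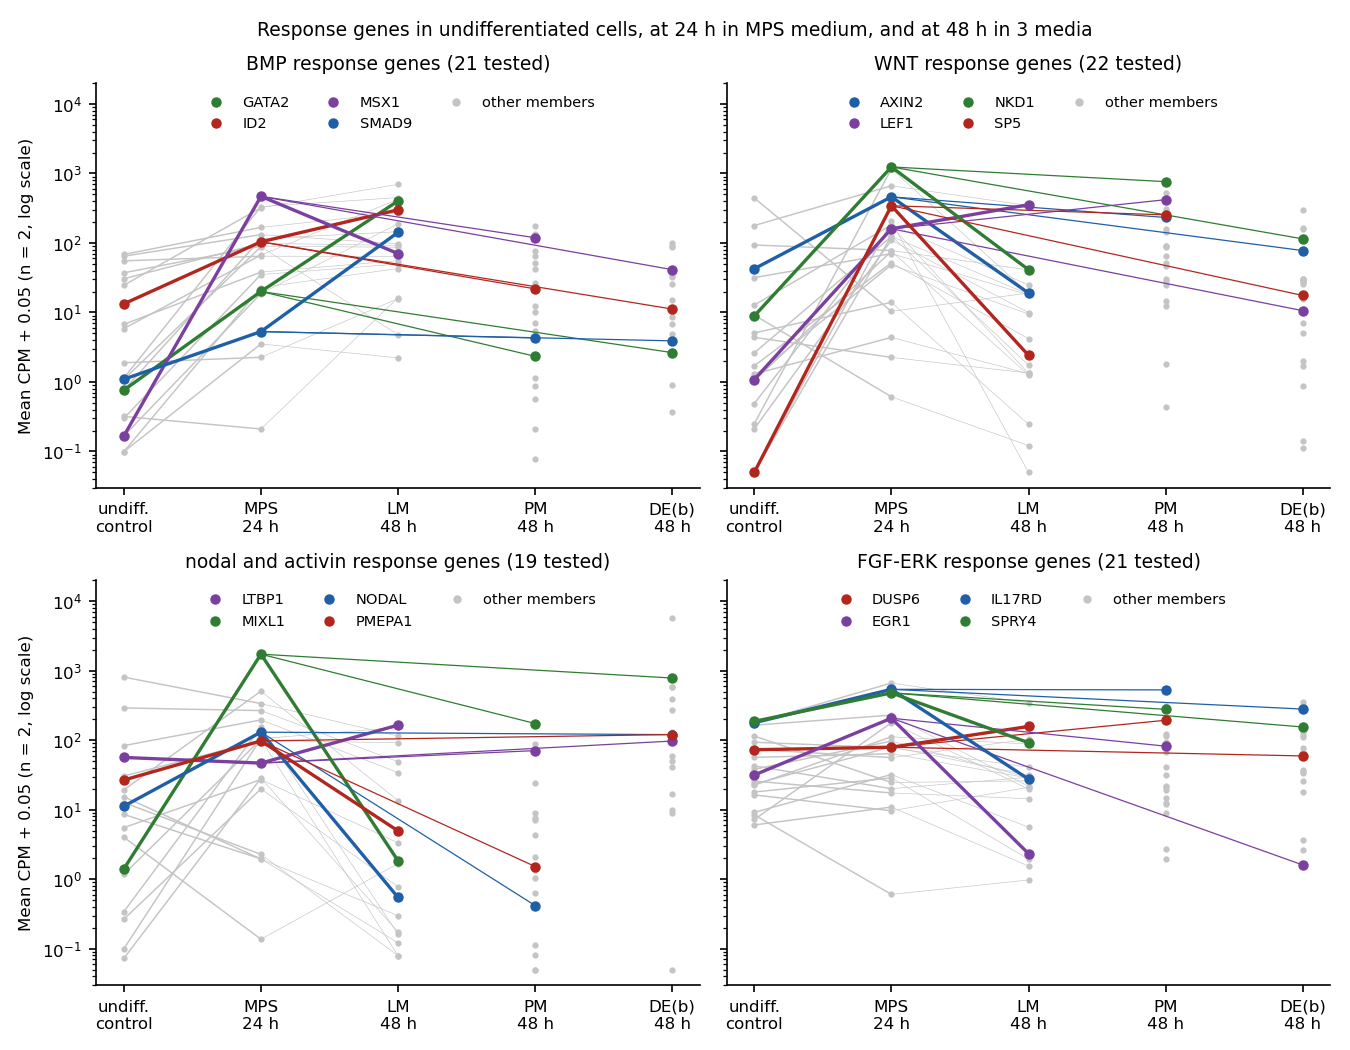
Library means (CPM plus 0.05, log axis) of the members of the BMP, WNT, nodal and activin, and FGF-ERK response lists in undifferentiated cells, in MPS cells at 24 h, and at 48 h in LM, PM and DE(b) medium. Colored lines follow 4 named genes a panel into each medium and gray lines join the other members up to MPS-LM. Most WNT and nodal lines run down from 24 h to LM, as 19 of 22 and 15 of 19 genes fell.

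Extracellular matrix genes rose more often than they fell. Of 45 matrix genes tested, 23 rose, 6 fell and 16 were not called (median 0.65), and those called lower were 2 to 5 without 1 library, with 2 without MPS-LM replicate 2. Among genes of the basement membrane, COL4A1 rose from 223 and 214 CPM to 1350.0 and 1605 CPM (2.77 ± 0.25, edgeR adjusted p = 1e-08), its partner COL4A2 from 182 and 192 CPM to 1163 and 1291 CPM (2.73 ± 0.24), and the laminin chain LAMA1 from 95.1 and 98.9 CPM to 696 and 662 CPM (2.82 ± 0.22). NID2, a linker of laminin and collagen networks, rose from 2.39 and 1.53 CPM to 752 and 571 CPM (8.39 ± 0.55), and its paralog NID1 rose less, from 49.9 and 37.9 CPM to 151 and 156 CPM (1.82 ± 0.30). The laminin chains LAMA4 and LAMA5 were not called. Among interstitial matrix genes, COL1A1 rose from 188 and 128 CPM to 1502 and 928 CPM (2.94 ± 0.34), while COL1A2, the other chain of collagen I, was not called (645 and 596 CPM, then 508 and 338 CPM). LUM, a small proteoglycan of connective tissue, was at 0.304 and 0 CPM at 24 h and 341 and 190.3 CPM in MPS-LM (10.64 ± 0.88), and FBLN2 rose from 12.8 and 11.7 CPM to 342 and 466 CPM (5.06 ± 0.40). FN1 was not called (1871 and 1276 CPM, then 1543 and 1409 CPM), and neither was VCAN. HAS3, a hyaluronan synthase, fell from 18.9 and 30.3 CPM to 1.11 and 0.285 CPM (-5.19 ± 0.68).

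Genes of epithelial and mesenchymal state moved in opposite ways only in part. Of 36 epithelial genes, 19 fell, 6 rose and 11 were not called (median -1.43), and of 23 mesenchymal genes, 11 rose, 3 fell and 9 were not called (median 0.66). CDH1, or E-cadherin, fell from 264 and 362 CPM to 46.3 and 67.4 CPM (-2.44 ± 0.27, edgeR adjusted p = 2e-07), and CDH2, or N-cadherin, fell as well, from 578 and 526 CPM to 137 and 188 CPM (-1.74 ± 0.15). CDH3 fell from 136 and 143 CPM to 35.2 and 27.5 CPM (-2.15 ± 0.20), and CDH11, a mesenchymal cadherin, was not called (512 and 299 CPM, then 553 and 718 CPM). So 3 classical cadherins were lower on day 2, and CDH2 was at 487 and 453 CPM in MPS-PM and 698 and 715 CPM in MPS-DE(b). The splicing regulator ESRP1, an epithelial gene, fell from 76.7 and 106 CPM to 3.23 and 4.62 CPM (-4.52 ± 0.31), and the tight junction genes OCLN and CLDN7 fell from 57.6 and 59.9 CPM to 3.69 and 6.36 CPM and from 52.7 and 71.2 CPM to 2.85 and 3.0 CPM. Keratins of simple epithelia went both ways. KRT8 rose from 1361 and 992 CPM to 3249 and 4084 CPM (1.65 ± 0.30), KRT18 from 758 and 528 CPM to 1253 and 2132 CPM (1.42 ± 0.32) and KRT19 from 225 and 287 CPM to 1705 and 1289.6 CPM (2.55 ± 0.31). KRT20, present only under an identifier without a GENCODE position, fell from 9.67 and 16.4 CPM to no counts in MPS-LM (at least 82.3-fold lower by the floor of 3 counts). TJP1, the scaffold of tight junctions, was not called (269 and 275 CPM, then 299.5 and 301 CPM). The repressors of E-cadherin were exchanged, since SNAI1 fell from 134 and 112 CPM to 14.9 and 17.4 CPM (-2.91 ± 0.25) and SNAI2 rose from 22.7 and 11.1 CPM to 382 and 252 CPM (4.22 ± 0.48). ZEB2 rose from 61.9 and 38.8 CPM to 147 and 162 CPM (1.63 ± 0.36). VIM, a mesenchymal intermediate filament, rose from 1252 and 695 CPM to 2059 and 2138 CPM (1.12 ± 0.32, edgeR adjusted p = 0.0081), but without MPS-24h replicate 2 its change was 0.74 with an adjusted p of 0.153. The receptors PDGFRA and PDGFRB, carried by mesenchyme, rose from 57.8 and 32.2 CPM to 517 and 322 CPM (3.21 ± 0.44) and from 13 and 10.1 CPM to 129.8 and 92.5 CPM (3.27 ± 0.52). The call was lost without 1 library for KRT18 (adjusted p = 0.0561 without MPS-LM replicate 2).

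HOX genes, whose order along each cluster follows the body axis, are described by cluster and position, and differences between these groups were not tested. Of 37 HOX genes tested, 12 rose, 5 fell and 20 were not called, with a median of 1.12 (0.97 with genes at the counting floor set to their bound). Of all genes, 16.0% rose and 17.4% fell, so the count of HOX genes that fell says nothing particular about them. Genes of paralog groups 1 to 5 rose in 5 and fell in 5 of 15 cases, those of groups 6 to 9 rose in 6 of 12 and fell in none, and those of groups 10 to 13 rose in 1 of 10. The anterior gene HOXB1 fell from 15.9 and 10.5 CPM to 2.79 and 1.43 CPM (-2.67 ± 0.50, edgeR adjusted p = 0.00021). HOXD1 was at 5.85 and 15.7 CPM at 24 h and had no counts in MPS-LM, at least 68-fold lower by the floor of 3 counts. Both of these genes lay lower in each MPS-LM library than in either library at 24 h, as did nearly all genes called lower. The HOXB cluster on chromosome 17 rose in 7 of 10 genes, and its summed level went from 258 and 232 CPM to 748 and 845 CPM. Within it, HOXB8 rose from 7.02 and 9.36 CPM to 97.1 and 133 CPM (3.84 ± 0.62), HOXB3 from 45.2 and 42.1 CPM to 189 and 114 CPM (1.80 ± 0.41) and HOXB9 from 49.2 and 48.6 CPM to 115 and 230.4 CPM (1.85 ± 0.61). The HOXC cluster on chromosome 12 rose in 4 of 7 genes tested, from a sum of 0.564 and 1.37 CPM to 15.2 and 42 CPM, with HOXC8 at 0 counts at 24 h and at 5.09 and 16.2 CPM in MPS-LM (at least 76.7-fold higher). HOXA genes on chromosome 7 rose in 1 of 11 cases, HOXA13, from 5.29 and 4.81 CPM to 20.8 and 50.9 CPM (2.85 ± 0.51), and fell in 2, and HOXD genes on chromosome 2 fell in 2 of 9. MPS-LM replicate 2 stood above replicate 1 in the sum of every cluster, for example 30.9 and 78.2 CPM for HOXA, and the number of HOX genes called higher, 12 with all libraries, ranged from 7 to 13 when a library was left out. In MPS-PM, HOXB1 stood at 134 and 210.4 CPM. Cofactors of HOX proteins rose in 5 of 9 cases, among them MEIS2 from 4.01 and 3.29 CPM to 68.7 and 68.9 CPM (4.25 ± 0.61) and PKNOX2 from 0.998 and 0.736 CPM to 30.3 and 34.6 CPM (5.22 ± 0.35), as well as MEIS1 and PBX2. PBX2 is summed over several haplotype copies and was not called when these were kept apart (adjusted p = 0.718). A single left-out library removed the call of HOXB9 (adjusted p = 0.107 without MPS-24h replicate 1, 0.115 without MPS-24h replicate 2 and 0.222 without MPS-LM replicate 2).

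**Figure D4:**
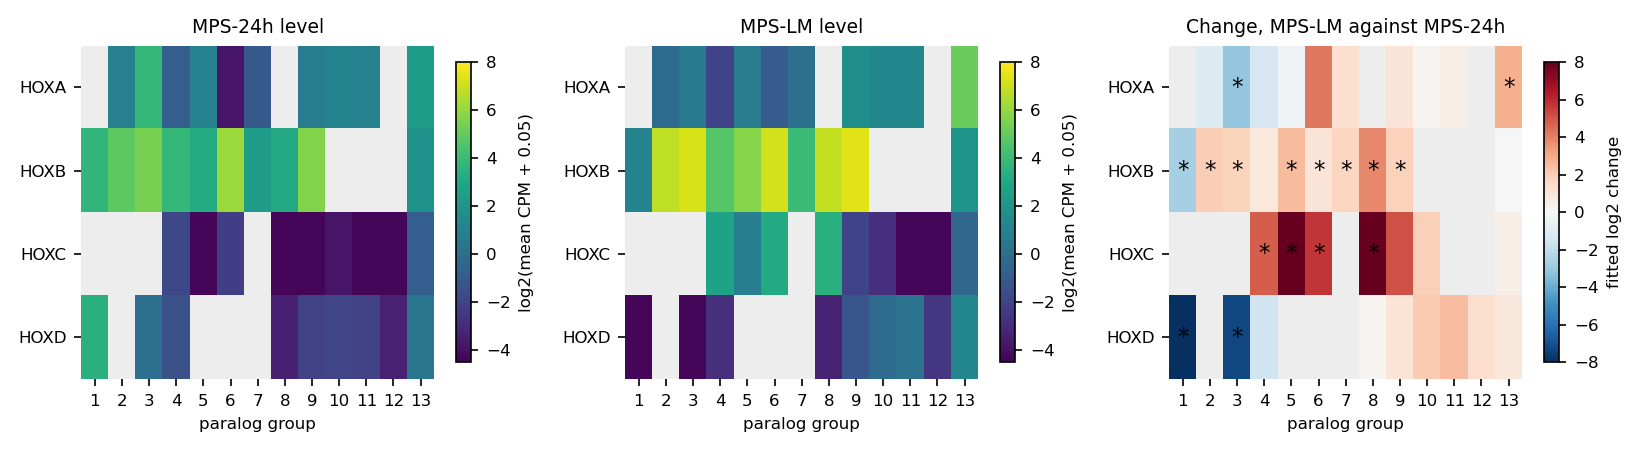
HOX genes by cluster (HOXA to HOXD) and paralog group (1 to 13): log2 of the mean CPM plus 0.05 at 24 h and in MPS-LM, and the fitted log2 change capped at 8 in size. Asterisks mark called genes, and gray marks positions without a gene, without a test or not shown. The HOXB and HOXC rows hold 11 of the 12 higher genes.

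Genes shared by extraembryonic mesoderm, amnion and vascular progenitors moved unevenly. Of 13 extraembryonic mesoderm and allantois genes, 8 rose, 1 fell and 4 were not called (median 2.08), and several that rose, LUM, NID2, COL3A1, COL6A3, DCN, POSTN and VIM, are also general matrix or mesenchymal genes. POSTN, a matricellular protein, rose from 5.18 and 6.63 CPM to 28.9 and 20.7 CPM (2.08 ± 0.48). Of 23 amnion genes tested, 7 rose, 3 fell and 13 were not called (median 0.36, and 0.28 with genes at the floor set to their bound). TFAP2A, an AP-2 factor of amnion and surface ectoderm, rose from 4.43 and 10.5 CPM to 30.6 and 35.4 CPM (2.17 ± 0.40), but the amnion genes VTCN1 (0.233 and 0 CPM) and GABRP (0.931 and 0.664 CPM) were low in MPS-LM, and 4 of the 7 that rose (GATA2, BAMBI, HEY1 and HAND1) are in the BMP, Notch or lateral lists too. EPAS1, a hypoxia-inducible factor expressed in vessels, rose from 0.651 and 0.393 CPM to 41.2 and 34.1 CPM (6.14 ± 0.71). Blood and endothelial progenitor genes were mixed, with 8 of 25 higher, 7 lower and 10 not called. The VEGF receptor KDR rose from 194 and 234 CPM to 597 and 1064 CPM (1.98 ± 0.43), FLT1 from 57.7 and 20.3 CPM to 154 and 434 CPM (2.94 ± 0.43), and TEK, the angiopoietin receptor, from 32.2 and 25.5 CPM to 108 and 131 CPM (2.07 ± 0.28). Of the 14 transcription factors tested in this list, 4 rose, among them GATA2, 5 fell and 5 were not called. LMO2 fell from 87.7 and 72 CPM to 4.94 and 7.83 CPM (-3.62 ± 0.56) and RUNX1 from 34.1 and 19.4 CPM to 0.989 and 1.47 CPM (-4.41 ± 0.43). The endothelial cadherin CDH5 had no counts in any of the 4 libraries, and PECAM1 was at 0.174 and 0.190 CPM in MPS-LM. Receptors named for endothelium were therefore present while these defining endothelial genes were at or near 0.

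Contractile genes rose in 5 of 23 cases and fell in 5, beside 16.0% and 17.4% of all genes, and 3 rose without MPS-24h replicate 2. ACTC1, the cardiac alpha actin, rose from 381 and 249 CPM to 3331 and 3676 CPM (3.49 ± 0.47, edgeR adjusted p = 3.6e-06), the largest gain in CPM of any called gene. MYL4, an atrial and fetal myosin light chain, rose from 5.96 and 1.34 CPM to 46.9 and 28.5 CPM (3.35 ± 0.51). Other sarcomere genes were low, with TNNT2 at 6.45 and 2.42 CPM and not called and MYH7 without counts in any of the 4 libraries. TAGLN, a smooth muscle actin-binding protein, fell from 751 and 528 CPM to 112 and 97.1 CPM (-2.61 ± 0.33).

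Pluripotency genes fell more often than they rose on day 2. Of 28 genes, 18 fell, 2 rose and 8 were not called (median -1.52), and fewer fell when any 1 library was left out. Among 16 core factors, 13 fell. Among the 12 RNA-binding, surface and enzyme genes, 5 fell, 2 rose and 5 were not called (median -0.05). POU5F1 was at 1625 and 1348 CPM in undifferentiated cells, at 595 and 692 CPM at 24 h and at 134 and 126 CPM in MPS-LM (-2.29 ± 0.19 between days, edgeR adjusted p = 3e-09). NANOG was at 171 and 188 CPM in undifferentiated cells, at 26.9 and 21.1 CPM at 24 h, and had 1 count in each MPS-LM library. SOX2 was at 331 and 278 CPM in undifferentiated cells and already at 1.13 and 0.540 CPM at 24 h, and it was not called on day 2. Of these 3 core factors, SOX2 was low by 24 h and NANOG by 48 h, while POU5F1 was still above 100 CPM in both MPS-LM libraries. L1TD1 fell from 581 and 649 CPM to 34.1 and 31.1 CPM (-4.23 ± 0.24), while the RNA-binding LIN28A was not called (1075 and 1178 CPM, then 1029 and 1291 CPM), and the de novo methyltransferase DNMT3B, at 2931 and 2632 CPM in undifferentiated cells, was not called either (353 and 372 CPM, then 322 and 325 CPM). TERF1, a telomere-binding protein, rose from 88.5 and 84 CPM to 303 and 359 CPM (1.96 ± 0.21), and CD24 rose from 478 and 437 CPM to 912 and 962 CPM (1.05 ± 0.19). Some genes of other lineages also fell, where 17.4% of all genes were lower and 16.0% higher. Lower were 12 of 24 definitive endoderm genes, 6 of 16 neural and ectoderm genes, 7 of 11 intermediate mesoderm genes and 5 of 12 germ cell genes, and 3, 0, 0 and 0 were higher. The lower counts of definitive endoderm, intermediate mesoderm and germ cell genes shrank when any 1 library was left out. That of neural and ectoderm genes shrank without some of the libraries. The neural and germ cell counts therefore say nothing firm about their members. The endoderm factor SOX17 had no counts in MPS-LM and was at 391 and 553 CPM in MPS-DE(b). PAX2, of the intermediate mesoderm, fell from 14.1 and 16.6 CPM to 0.582 and 3.75 CPM (-2.76 ± 0.56).

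**Figure D5:**
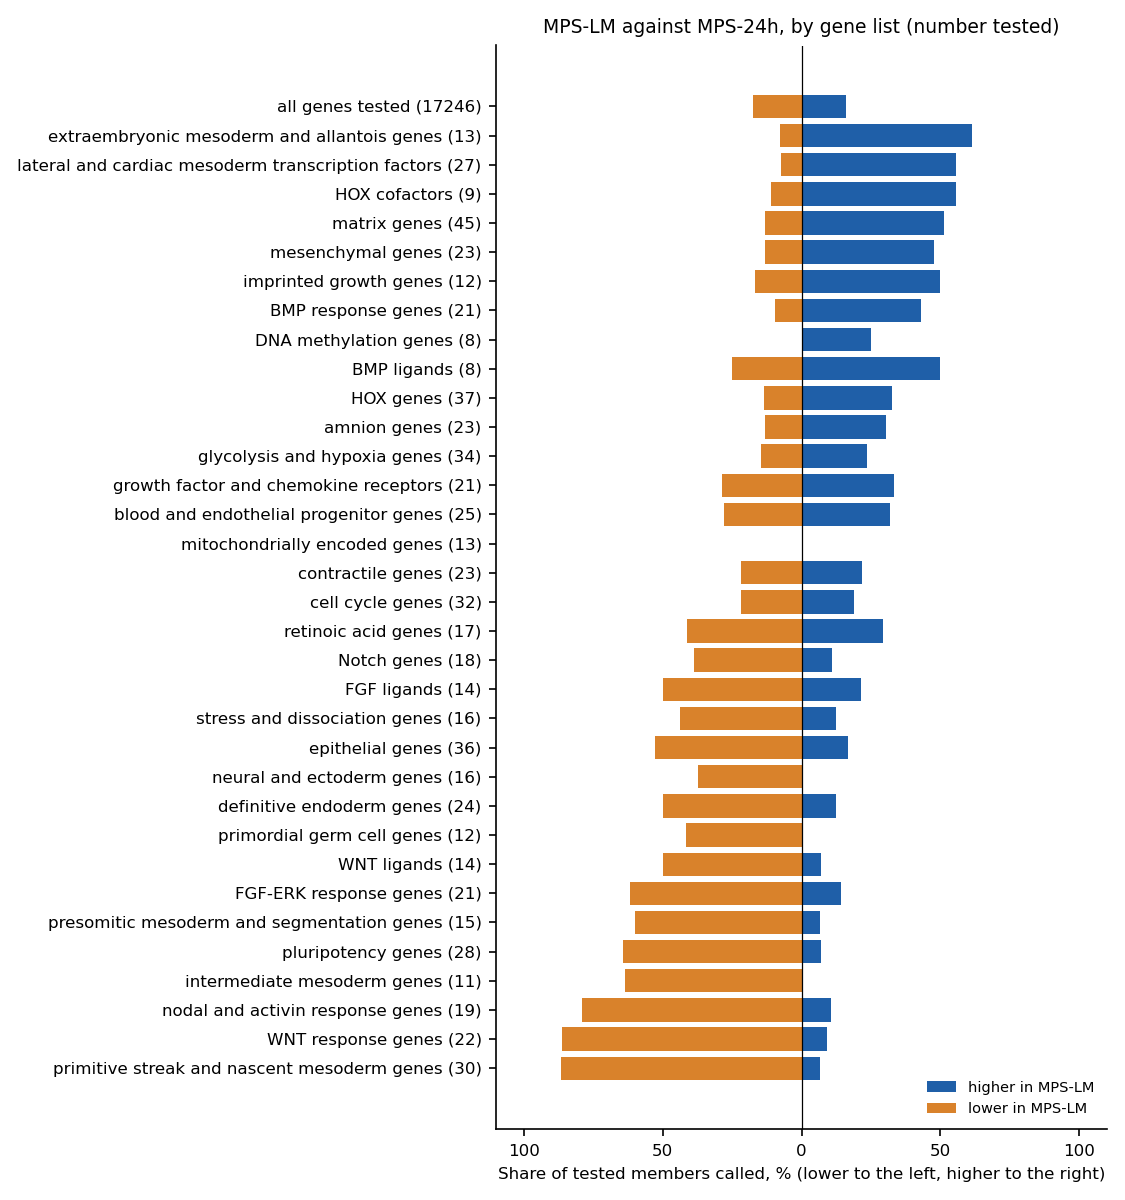
Share of the tested members of each gene list that were called lower (left) and higher (right) in MPS-LM against MPS-24h, in percent, with all 17246 genes at the top (17.4% lower, 16.0% higher). The streak, WNT and nodal lists extend farthest to the left, and the extraembryonic mesoderm genes, the lateral and cardiac factors and the HOX cofactors farthest to the right.

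Retinoic acid genes were mixed, with 5 of 17 higher and 7 lower. ALDH1A2, which makes retinoic acid in mesoderm, fell from 50.8 and 21.7 CPM to 2.98 and 2.09 CPM (-3.85 ± 0.50) and stood at 194 and 263 CPM in MPS-PM, while the receptor RARB rose from 0.477 and 0.0981 CPM to 6.40 and 2.42 CPM (3.86 ± 0.73). Imprinted growth genes rose in 6 of 12 cases and fell in 2. IGF2, a fetal growth factor, went from 0.564 and 0.442 CPM to 847 and 311 CPM (10.13 ± 0.57, edgeR adjusted p = 2.2e-11), and NNAT from 16.8 and 14.4 CPM to 182 and 134 CPM (3.35 ± 0.24). IGF2 thus went from near 0 to a clear level in both MPS-LM libraries, although these lay well apart. Glycolysis and hypoxia genes were mostly not called (21 of 34, with 8 higher and 5 lower), and the latter were 3 without MPS-24h replicate 1 or MPS-LM replicate 1. SLC2A3, a glucose transporter, fell from 3793 and 3476 CPM to 448 and 714 CPM (-2.62 ± 0.28), and GAPDH was not called (2788 and 2453 CPM, then 2383 and 2453 CPM). MXI1, a MYC antagonist, rose from 3.34 and 3.93 CPM to 30.2 and 42.2 CPM (3.34 ± 0.36), and MYC itself fell from 96.2 and 59.3 CPM to 30.1 and 51.4 CPM (-0.91 ± 0.35, edgeR adjusted p = 0.046). Cell cycle genes were mostly not called as well, 19 of 32, with 6 higher and 7 lower. The shares of the glycolysis and hypoxia list and of the cell cycle list lay near those of all genes, of which 16.0% were higher and 17.4% lower. The counts of these lists thus say nothing particular about their members. CCND2 fell from 197 and 174 CPM to 53.1 and 37 CPM (-2.04 ± 0.25) and the inhibitor CDKN1B rose from 15.8 and 13.1 CPM to 47.8 and 38.6 CPM (1.58 ± 0.17), while CDK1 rose from 113 and 118 CPM to 268 and 265 CPM (1.22 ± 0.22). Of 16 stress and dissociation genes, 2 rose and 7 fell (4 without MPS-LM replicate 1), among them FOS and EGR1, and the 13 mitochondrially encoded genes included no call. Of 8 DNA methylation genes, 2 rose, TET1 and TET2, and 0 fell, where 16.0% of all genes rose and 17.4% fell. Fewer rose when any 1 library was left out, so these calls say nothing firm about the list. Leaving out 1 library ended the call of MYC (adjusted p = 0.415 without MPS-24h replicate 1 and 0.386 without MPS-LM replicate 1), TET1 (adjusted p = 0.215 without MPS-24h replicate 1 and 0.189 without MPS-LM replicate 2) and TET2 (adjusted p = 0.161 without MPS-24h replicate 1, 0.124 without MPS-24h replicate 2, 0.136 without MPS-LM replicate 1 and 0.111 without MPS-LM replicate 2).

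By size of change, the gains with no count at 24 h were led by RGS13, a regulator of G protein signaling, at 279 and 128 CPM in MPS-LM (at least 1469.6-fold higher by the floor of 3 counts). P2RY6, a nucleotide receptor, followed at 88.5 and 77.4 CPM (at least 598-fold), then the zinc transporter SLC39A2 at 53.2 and 60.3 CPM (at least 409-fold) and RGS1, a paralog of RGS13, at 50 and 35.5 CPM (at least 308-fold). ODAM, a secreted protein, was at 37.1 and 27 CPM (at least 231-fold) and the adaptor SLA at 23.4 and 15.6 CPM (at least 140.4-fold). The calls of RGS13 and RGS1 were lost under DESeq2 (adjusted p = 0.185 and 0.277). Among genes with counts on both days, ADGRA2, an adhesion GPCR, rose from 0.217 and 0.687 CPM to 457 and 415 CPM (9.94 ± 0.75), and LRRC32, which docks latent TGF-beta on cells, from 0.564 and 0.294 CPM to 449 and 245 CPM (9.61 ± 0.55). SEMA6D, a guidance ligand, rose from 0.434 and 0.245 CPM to 198 and 91.6 CPM (8.68 ± 0.65), and TMEM88, a membrane inhibitor of WNT signaling, from 0.912 and 0.546 CPM to 289 and 279.6 CPM (8.60 ± 0.63). Losses of this size outside the streak and WNT genes included TNFRSF9, from 29.1 and 14.7 CPM to no counts (at least 138-fold lower), CD48, from 10.4 and 19 CPM to no counts (at least 92.9-fold lower), and CHRNA1, a muscle acetylcholine receptor subunit, from 38.4 and 30.7 CPM to 0 and 0.0474 CPM. C11orf87 was at 36.2 and 29.3 CPM at 24 h and 0 and 0.0474 CPM in MPS-LM, and ZCCHC12 at 21.7 and 17 CPM and then 0 and 0.0474 CPM. NPPB, the natriuretic peptide precursor, was at 65.4 and 19.4 CPM and then 0.174 and 0 CPM. By absolute level, the cytoskeletal giant AHNAK rose from 457 and 465 CPM to 3143 and 3513 CPM (2.87 ± 0.26), the adaptor DOK4 from 17.5 and 14.3 CPM to 1427 and 1684 CPM (6.63 ± 0.39), CALM2, a calmodulin gene, from 325 and 284 CPM to 1378 and 1630.0 CPM (2.32 ± 0.30) and PRTG, an early mesoderm membrane protein, from 543 and 363 CPM to 1425 and 1761 CPM (1.83 ± 0.30). ODC1, the first enzyme of polyamine synthesis, fell from 3055 and 2504 CPM to 139 and 161 CPM (-4.20 ± 0.26, edgeR adjusted p = 4.5e-11). The amino acid transporter SLC7A5 fell from 2598 and 2482 CPM to 332 and 545 CPM (-2.51 ± 0.26) and the gap junction gene GJA1 from 2805 and 2440.4 CPM to 701 and 727 CPM (-1.87 ± 0.19). TUBB2B, a neuronal tubulin, fell from 1783 and 1597 CPM to 264 and 303 CPM (-2.56 ± 0.20), and ACTG1, a cytoplasmic actin, from 5303 and 4476 CPM to 1979 and 2540.2 CPM (-1.10 ± 0.20).

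Genes can also be grouped by whether they were off (under 1 CPM in both libraries) or on (at least 10 CPM in both), a grouping chosen after the values were seen and given without a test. From 24 h to MPS-LM, 36 genes went from off to on and 45 from on to off. Including the undifferentiated control, 19 genes were off, off and then on, among them HAND2, TBX2, HLX, LUM, FGF3, RSPO2 and WNT11. 18 genes were on at 24 h alone, among them TBXT, EOMES, GSC, MSGN1, FOXC1, FGF17 and DKK4. 36 genes were off in undifferentiated cells and on at 24 h and in MPS-LM, among them HAND1, GATA2, GATA3, GATA4, GATA6, FOXF1, ISL1 and BMPER, and 9 were on in undifferentiated cells and at 24 h and off in MPS-LM, among them NANOG and NODAL. ANO1 was the only gene on, off and on again, at 12.1 and 10.4 CPM, 0.130 and 0.491 CPM and 33.6 and 28.1 CPM. Of the 95 genes that were off in undifferentiated cells and on at 24 h, 60 were called lower and 13 higher in MPS-LM.

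The same LM medium was given to cells with other day 1 histories, in libraries that the MPS comparison does not share. Against their own 24 h libraries, 4589 genes (26.6%) were called in PPS cells, 6832 (39.6%) in APS cells and 5915 (34.3%) in DE(a) cells. Here too the medium and the passing of time changed together. Of the 2766 genes that rose in MPS cells, 57.9% rose in PPS cells, which was 70.8% of the genes that rose there. 76.7% rose in APS cells (61.9% of the genes that rose there) and 60.7% in DE(a) cells (52.9%). Of the 2999 genes that fell, 56.8% fell in PPS cells (73.2% of the genes that fell there), 73.2% in APS cells (64.5%) and 51.9% in DE(a) cells (56.8%). Called changes of the opposite direction were few in PPS cells (2 of the higher and 28 of the lower genes) and more in DE(a) cells (31 and 171). A set of 1043 genes rose and 911 fell after all 4 day 1 treatments. HAND1 went from 35 and 18.8 to 1892 and 1826 CPM in PPS cells, from 8.34 and 4.71 to 806 and 1528 CPM in APS cells and from 1.87 and 0.644 to 388 and 818 CPM in DE(a) cells. It was lower before LM medium in these cells than in MPS cells, and after it the PPS libraries lay within the range of 1 MPS-LM library to the other while the APS and DE(a) libraries lay below both.

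MPS and PPS cells differ on day 1 only by the presence of activin A, and the difference between their day 2 changes was tested as an interaction. It was called for 469 genes (2.72%), 145 with a more positive and 324 with a more negative change in MPS than in PPS cells. GATA5 was at 9.97 and 16.8 CPM in PPS-24h and 27.6 and 24 CPM in PPS-LM, while it rose from 1.17 and 1.77 to 56.3 and 53.8 CPM in MPS cells (difference 4.24 ± 0.63, edgeR adjusted p = 0.00032). SHD, an adaptor protein, was at 7.08 and 7.72 CPM in PPS-24h and 90.6 and 89.1 CPM in PPS-LM, and rose from 0.217 and 0.147 to 45.6 and 56 CPM in MPS cells (difference 4.42 ± 0.84). TBX20 went from 0.0495 and 0.120 to 54.1 and 50.7 CPM in PPS cells. In MPS cells it went from 4.90 and 4.18 to 37.3 and 61.6 CPM (difference -5.80 ± 1.03). Each PPS-24h library held 3 counts or fewer of TBX20, so the size of this difference is not firm. The amnion gene GABRP rose in PPS cells from 0.790 and 0.542 to 31.8 and 51.9 CPM but fell in MPS cells from 2.35 and 3.46 to 0.931 and 0.664 CPM (difference -7.87 ± 0.89, edgeR adjusted p = 1.4e-05), and IGFBP3 rose in PPS cells from 2.13 and 1.38 to 709 and 697 CPM against 8.85 and 12.6 to 27.2 and 26.3 CPM in MPS cells (difference -7.35 ± 0.52). HAND1 was not called (difference -2.15 ± 0.66, edgeR adjusted p = 0.089). The interaction of the 5 called genes named here held without each of the 8 libraries in turn. These genes were picked by the size of the difference in the same libraries, so this adds no independent support. CALB2, which had the largest positive difference and is described further below, lost its call without some of the libraries. The day 2 change of MPS cells alone was not called for GABRP without MPS-24h replicate 2 (adjusted p = 0.122), MPS-LM replicate 1 (0.0736) or MPS-LM replicate 2 (0.129), nor for IGFBP3 without MPS-24h replicate 1 (0.0528).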

How the data were processed

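Bulk RNA-seq was made from wild type ESI017 cells in 17 conditions, 2 libraries each, and the second replicate of every condition came from a table deposited as a repeat. The values deposited by the authors are estimated counts per gene, made with Salmon 1.10.2 in quasi-mapping mode, corrected for GC and sequence bias, on transcripts of GRCh38, and summed to genes in R 4.4.2. They are scaled neither for depth nor for length. No strand setting is given in the sources used here, so overlapping and antisense genes are uncertain.

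Here, identifiers sharing a symbol (3022 identifiers of 1023 symbols, mainly alternate haplotype copies) were summed, which left 35952 of 37951 entries. This choice was made after the data were seen. The counts were rounded, filtered with filterByExpr to 17246 genes, scaled by TMM and tested with edgeR 4.0.16 (quasi-likelihood F test, R 4.3.3) with 1 mean for each condition over all 34 libraries, which leaves 17 residual degrees of freedom. P-values were Benjamini-Hochberg adjusted over all genes tested, with a threshold of 0.05. CPM was computed on the library total. A floor of 3 counts per library served for genes with 3 counts or fewer in both libraries of a condition, and such bounds cover counting error only. Alternatives were DESeq2 1.42.0, RLE scaling, no filter, the replicate number as a block, a test against a 2-fold change, the 4 libraries alone, unsummed identifiers and the omission of each library. The script was tested on simulated counts.

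Named genes were the top 15 by log2 rise and the top 15 by log2 fall (called, without overlap and averaging 10 CPM or more in the higher condition), the 10 largest gains and losses in mean CPM, list members, and the 5 largest differences in each direction against MPS-PM and MPS-DE(b) and in the interaction. KRT20 was present only under an identifier without a GENCODE position. Some genes that these rules name are not reported here. Lists, members and tests were chosen with earlier results of these data known.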

Additional observations from a re-analysis of the deposited data

Results flagged for a closer look

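The change from 24 h to 48 h in LM medium differed between MPS and PPS cells for some genes, tested as an interaction with edgeR. The genes with the largest differences in each direction are given as log2 values of the MPS change minus the PPS change. The difference was positive for CALB2 (4.85), SHD (4.42), GATA5 (4.24), GRIK3 (4.18) and CEBPD (4.02). For GRIK3 it came from a deeper fall in PPS cells (-5.55 ± 0.50) than in MPS cells (-1.37 ± 0.41). CALB2 went from 0.0868 and 0.638 to 13.5 and 9.79 CPM in MPS cells and from 0.247 and 0.722 to 0.263 and 0.765 CPM in PPS cells. CEBPD went from 1.53 and 1.28 to 23.9 and 21.9 CPM in MPS cells and from 1.99 and 3.20 to 1.91 and 3.12 CPM in PPS cells. The difference was negative for GABRP (-7.87), NTRK2 (-7.36), IGFBP3 (-7.35), GATM (-6.40) and TBX20 (-5.80). The size for TBX20 is not firm, since each PPS-24h library held 3 counts or fewer of it. GATM went from 18.0 and 17.1 to 0.756 and 3.45 CPM in MPS cells and from 9.74 and 10.2 to 109 and 96.4 CPM in PPS cells. NTRK2 went from 1.26 and 1.08 to 0.0582 and 0.332 CPM in MPS cells and from 0.593 and 0.662 to 23.9 and 12.6 CPM in PPS cells. The interaction call of CALB2 was lost without MPS-24h replicate 1 (adjusted p = 0.119), MPS-LM replicate 1 (0.0746), PPS-24h replicate 2 (0.31) or PPS-LM replicate 1 (0.101), while the other 9 genes kept theirs without each of the 8 libraries. These genes were selected by the size of the difference, so its values are a description.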

How the results depend on the processing

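Over the settings tried, the number of genes called between MPS-24h and MPS-LM was 5994 with DESeq2, 5743 with RLE scaling, 5608 with identifiers not summed (chosen after seeing the data), 5499 without the filter and 5282 with the 4 libraries alone. Tested against a fold change of at least 2 it was 1856 (775 higher and 1081 lower). Over the settings that left out 1 library or 1 replicate number it ranged from 2985 (without replicate 1 of both conditions) to 4664, with 1444 to 2289 higher and 1541 to 2375 lower. Without replicate 2 of both it was 3620. In the same settings the calls ranged from 2250 (without MPS-PM replicate 2) to 2535 against MPS-PM (1184 to 1442 higher and 1066 to 1260 lower), from 2486 to 2889 against MPS-DE(b) (1067 to 1409 higher and 1419 to 1620 lower) and from 2955 (without PPS-LM replicate 1) to 4119 for the LM change in PPS cells (1564 to 2073 higher and 1390 to 2046 lower). The difference between MPS and PPS changes moved most, with 744 calls under DESeq2 (259 positive), 994 without the filter (379 positive and 615 negative) and 224 to 540 when a library was left out (61 to 204 positive and 163 to 355 negative).

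With the replicate block, 6588 genes were called (3188 higher and 3400 lower), and 702 in the difference between MPS and PPS, of which 246 were positive. The correlation of deviations between conditions was 0.001 for MPS-24h and MPS-LM, so the replicate numbers were not taken to pair these samples, but over all 136 pairs of conditions it had a median of 0.171 (-0.241 to 0.63), with 98 pairs over 0.1, so libraries of the same number deviated together in most other pairs.

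Of 180 called genes that the text or its naming rule lists, none changed direction in any setting, 19 lost their call without 1 library and 37 when the settings without a replicate number were counted too. Calls lost under DESeq2 were RGS13, RGS1, CYP26A1, DCN and MEOX2, and with identifiers not summed PBX2, WNT3, GREM1, DUSP6, MEOX2, MYC and TET2. DKK4 lost its call without either replicate number, although it had no counts in MPS-LM. Over the left-out libraries the list counts ranged as follows. Lateral and cardiac factors called higher were 11 to 15, streak genes called lower 22 to 25, WNT response genes called lower 15 to 19, nodal and activin response genes called lower 11 to 15 and BMP response genes called higher 6 to 9. 10 genes that were not called changed sign: over the left-out libraries ETV5 ranged from -0.56 to 1.41, FN1 from -0.35 to 0.23, GAPDH from -0.28 to 0.072, GATA4 from -0.60 to 0.47 (-0.031 with the replicate block), ISL1 from -0.71 to 0.77, LIN28A from -0.17 to 0.25, MSX2 from -0.066 to 0.73, TBX4 from -3.00 to 1.23, VCAN from -0.084 to 0.012 and VTCN1 from -4.76 to 0.48 on the log2 scale. The cause of these changes was not tested. With 2 libraries a condition, a missing call does not show that a gene did not change, and genes with 3 counts or fewer in a library carry no firm fold.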

Other observations

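Among definitive endoderm genes, APOA1, AFP and RHOBTB3 were called higher in MPS-LM while its markers SOX17, FOXA2, CXCR4 and HHEX were not. AFP went from 0.0868 and 0.10 to 3.97 and 5.18 CPM, APOA1 from 0.217 and 0.0491 to 2.56 and 2.23 CPM and RHOBTB3 from 93.0 and 53.2 to 359 and 515 CPM. Among stress genes, ATF3 went from 41.4 and 30.9 to 59.4 and 79.8 CPM and GADD45A from 34 and 32.3 to 88.8 and 65.6 CPM, both called higher against the 7 stress genes called lower.

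Among cell cycle genes, CDKN1C, an imprinted inhibitor, went from 11.3 and 11.6 to 37.0 and 23.8 CPM and CCND1 from 606 and 720.1 to 307 and 382 CPM, the former called higher and the latter lower. TOP2A went from 336 and 345 to 603 and 486 CPM and was called higher.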
